A study of Mus musculus with 12 samples.

Results

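T (Brachyury), Noto, Chrd, Nog and Foxj1 were followed in mouse gastruloids, which are balls of embryonic stem cells that form a body axis in culture. These 5 genes were picked by name out of the 55141 genes of the count table, and were taken by Ensembl identifier. In the mouse embryo, the node is a small ciliated organizer at the tip of the primitive streak, and it gives rise to the notochord. Cells of the node and notochord keep the T-box factor T, which is also made in the streak and tail bud, and add the homeobox factor Noto. Noto acts upstream of the forkhead factor Foxj1, which drives the genes of motile cilia. The same axial cells secrete Chordin (Chrd) and Noggin (Nog), proteins that bind BMP ligands and keep them from their receptors.

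The gastruloids were grown from cells of a 129/SVEV background, with 300 cells seeded per well. They received a pulse of the Wnt agonist CHIR 99021 (3 µM, 24 h) after 48 h of aggregation. Embedding in a dextran-based hydrogel followed, either 72 h or 96 h after the cells were seeded. The gel had a concentration of 1.0 mM or of 1.5 mM, the latter being stiffer, and all gastruloids were harvested at 120 h. Each of the 4 groups (72 h in 1.0 mM, 96 h in 1.0 mM, 72 h in 1.5 mM and 96 h in 1.5 mM) held 3 libraries of poly-A RNA, each from about 30 pooled gastruloids. Groups embedded at 72 h had therefore spent longer in the gel by the time of harvest, and age at embedding and time in the gel cannot be told apart. In bulk RNA of this kind, fewer cells of a type and less RNA per cell cannot be told apart either. Total counts ran from 23011791 to 27609422 per library. The most counted feature, CT010467.1, took 0.207% to 6.12% of the counts of a library. Its share was highest in 1.5 mM gels, in replicate 1 of the 72 h embedding (6.12%) and replicate 2 of the 96 h embedding (4.21%).

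The 5 genes lie on 4 chromosomes of the mm10 mouse genome. T spans chr17:8434423-8442496 and Noto chr6:85423886-85428877, both on the forward strand. Chrd spans chr16:20733127-20742384 on the forward strand, and its 5′ end overlaps Thpo, a gene on the opposite strand, over 1385 bases. Nog (chr11:89300638-89302332) and Foxj1 (chr11:116330704-116335399) are on the reverse strand. The strand setting of the read counts is not stated, so reads in the stretch that Chrd shares with Thpo are uncertain. Thpo had 56 to 156 counts per library against 620 to 1327 for Chrd.

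RefSeq promoter windows (GRCm38.p6, the mm10 assembly) were held for T, Noto and Chrd. The 250 bases before the start of T and of Noto are printed because T and Noto are the transcription factors compared with each other within libraries. The T window is chr17:8434173-8434422 and the Noto window chr6:85423636-85423885, both read 5′ to 3′ on the forward strand.
T: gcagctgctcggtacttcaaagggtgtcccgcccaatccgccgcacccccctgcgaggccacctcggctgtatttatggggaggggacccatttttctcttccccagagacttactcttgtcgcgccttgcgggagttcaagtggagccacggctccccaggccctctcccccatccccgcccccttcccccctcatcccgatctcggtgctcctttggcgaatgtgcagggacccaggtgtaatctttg
Noto: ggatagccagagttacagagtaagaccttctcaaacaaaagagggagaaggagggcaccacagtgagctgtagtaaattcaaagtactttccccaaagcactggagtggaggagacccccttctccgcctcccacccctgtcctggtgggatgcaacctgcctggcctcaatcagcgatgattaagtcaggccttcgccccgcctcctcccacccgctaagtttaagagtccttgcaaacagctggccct
G and C made up 62.8% of the T window, 54.8% of the Noto window and 78.0% of the Chrd window, against a median of 52.4% over 32851 promoter windows of the same length. The windows were searched on both strands for the TCF/LEF motifs CTTTGAT and CTTTGTT, the T-box site AGGTGTGA and its core GGTGTG, which it contains, the FOX motif TGTTTAC and the RFX site GTTGCC. None of these letters occurred in the windows of T, Noto or Chrd, so no printed base is in capitals. Among all promoter windows, CTTTGAT was found in 3.21%, CTTTGTT in 5.03%, AGGTGTGA in 1.12%, GGTGTG in 16.3%, TGTTTAC in 3.17% and GTTGCC in 10.4%.

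The 5 genes differed widely in level. In FPKM, which divides by gene length, T ranged from 25.7 to 95.1 over the 12 libraries and was the highest of the 5 genes in each group. Chrd (5.11 to 12.2 FPKM) and Nog (2.95 to 10.5 FPKM) came next, and their ranges overlapped. Foxj1 (1.24 to 3.53 FPKM) and Noto (0.378 to 3.51 FPKM) were the lowest. The counts behind Noto were few, at 24 to 186 per library, whereas those behind T were 1725 to 7093.

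**Figure D1:**
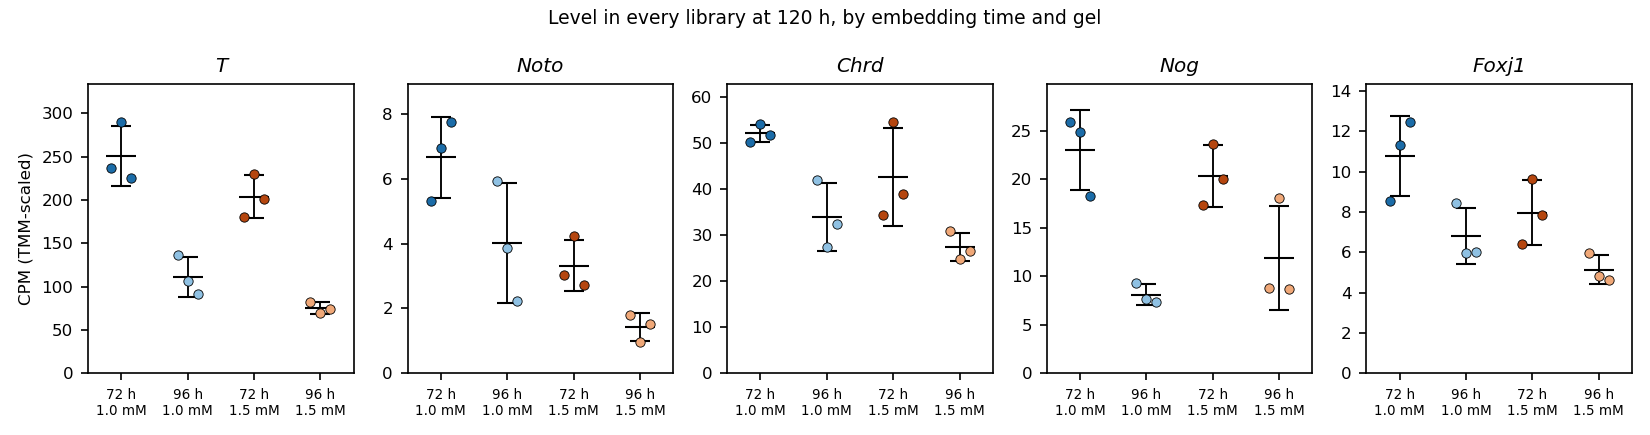
Level of each gene in CPM (TMM-scaled, linear axis from 0) in the 12 libraries, by group. Points are libraries, and bars give the mean ± SD (n = 3). T stood at 179.9 CPM or more in the 6 libraries embedded at 72 h and at 137 CPM or less in the 6 embedded at 96 h, and Noto was lowest after embedding at 96 h in 1.5 mM gels (0.963 to 1.80 CPM).

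Embedding at 72 h rather than 96 h left gastruloids at 120 h with more T in both gels, at 2.26-fold in the softer gel (1.0 mM) and 2.68-fold in the stiffer one (1.5 mM). Nog was 2.84-fold higher in 1.0 mM gels, Noto 2.31-fold higher in 1.5 mM gels, and Chrd about 1.54-fold higher in 1.0 mM and 1.55-fold higher in 1.5 mM gels. Of the 5 genes, 3 passed an adjusted p of 0.05 in 1.0 mM gels (T, Chrd and Nog) and 4 in 1.5 mM gels (T, Noto, Chrd and Foxj1), all of them higher after embedding at 72 h. Over all genes tested with edgeR's quasi-likelihood test, 9.24% of 15763 passed in 1.0 mM gels, 5.97% higher and 3.27% lower, and 19.3% of 15683 passed in 1.5 mM gels, 10.4% higher and 8.98% lower. All 5 genes passed the filter on low counts in each comparison. The median log2 fold change of the 5 genes was 0.74 in 1.0 mM and 0.77 in 1.5 mM gels, beside -0.01 over all genes tested in either gel. With the additional requirement of an absolute log2 fold change above 1, T and Nog counted as differentially expressed (DE) in 1.0 mM gels and T and Noto in 1.5 mM gels, where 2.61% and 1.61% of all genes did in that direction. Libraries of the 2 embedding times were separate for 4 of the 5 genes in each gel (14.6% of all genes in 1.0 mM and 20.0% in 1.5 mM gels were higher without overlap), and for T, Chrd and Foxj1 in both (8.84%). When FPKM values were tested with limma instead, only Nog in 1.0 mM and T in 1.5 mM gels passed.

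T was at 237, 289.7 and 225 CPM in replicates 1 to 3 of the 72 h embedding in 1.0 mM gels, and at 137, 106 and 91.5 CPM in those embedded at 96 h. Its values in 1.5 mM gels were 179.9, 229.5 and 201 CPM for embedding at 72 h and 82.7, 69.2 and 74.8 CPM for embedding at 96 h. In both gels all libraries of the earlier embedding lay above all of the later one. The log2 fold change of T in 1.0 mM gels was 1.17 ± 0.14 (SE) with an adjusted p of 0.000604, and in 1.5 mM gels 1.42 ± 0.10 (SE) with an adjusted p of 0.00026, where it ranked 4 among all genes by p. Leaving out any library kept T past the threshold in both gels. Group means fell in the order 72 h in 1.0 mM (251 CPM), 72 h in 1.5 mM (203 CPM), 96 h in 1.0 mM (112 CPM) and 96 h in 1.5 mM (75.6 CPM), and each step exceeded the larger SD of its neighbours, although the libraries of the highest 2 groups overlapped.

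Noto was at 5.30, 6.94 and 7.74 CPM in 1.0 mM gels for embedding at 72 h and at 5.94, 3.85 and 2.24 CPM after embedding at 96 h. Replicate 1 embedded at 96 h lay above the lowest library embedded at 72 h, so the embedding times overlapped. In the stiffer gel the values were 3.02, 4.23 and 2.72 CPM against 1.80, 0.963 and 1.52 CPM, with no overlap. The log2 fold change was 0.74 ± 0.30 (SE, adjusted p = 0.159) in 1.0 mM and 1.20 ± 0.28 (SE, adjusted p = 0.0181) in 1.5 mM gels. In 1.0 mM gels the call depended on a library, as it was 1.13 (adjusted p = 0.0386) without replicate 1 embedded at 96 h. In the stiffer gel the adjusted p rose to 0.0664 without replicate 2 embedded at 72 h, and to 0.0636 and 0.0585 without replicates 2 and 3 embedded at 96 h. The interaction of embedding time and gel, which tests whether the effect differs between gels, was 0.48 ± 0.45 (SE, adjusted p = 0.953). The means of 1.0 mM gels with embedding at 96 h (4.01 CPM) and of 1.5 mM gels with embedding at 72 h (3.32 CPM) were neighbours that differed by less than the larger SD.

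Foxj1, the cilia regulator downstream of Noto, was at 8.56, 11.3 and 12.4 CPM in 1.0 mM gels for embedding at 72 h and at 8.43, 5.98 and 6.03 CPM after embedding at 96 h. The values in 1.5 mM gels were 6.40, 9.62 and 7.87 CPM against 5.96, 4.82 and 4.63 CPM. Both gels thus separated the embedding times without overlap, although the nearest libraries in 1.0 mM gels were 8.56 and 8.43 CPM. For Foxj1 the log2 fold change in 1.0 mM gels was 0.67 ± 0.19 (SE) with an adjusted p of 0.0503, just outside the threshold, and in 1.5 mM gels 0.62 ± 0.18 (SE) with an adjusted p of 0.0414, just inside it. The call in 1.5 mM gels was lost without any of 4 libraries (adjusted p up to 0.141), namely replicates 2 and 3 of either embedding time. The softer gel gained a call without replicate 1 of the 72 h embedding (adjusted p = 0.0174) or of the 96 h embedding (adjusted p = 0.034).

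Chrd was at 50.4, 54.2 and 51.9 CPM in 1.0 mM gels for embedding at 72 h and at 42.0, 27.4 and 32.4 CPM after embedding at 96 h. Chrd in 1.5 mM gels was at 34.3, 54.6 and 39.1 CPM against 30.9, 24.9 and 26.7 CPM, again with no overlap. The log2 fold change was 0.63 ± 0.13 (SE, adjusted p = 0.0142) in 1.0 mM and 0.63 ± 0.16 (SE, adjusted p = 0.024) in 1.5 mM gels. It missed the threshold in 1.0 mM gels without replicate 3 of the 96 h embedding (adjusted p = 0.0678), and in the stiffer gel without replicate 2 of the 72 h embedding (0.42, adjusted p = 0.0521) or replicates 2 or 3 of the 96 h embedding (adjusted p = 0.0915 and 0.0856). The 4 group means fell from 52.2 to 27.5 CPM in the same order as those of T, and none of the steps exceeded the larger SD of its neighbours.

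Nog, the other BMP antagonist, was at 25.9, 24.8 and 18.3 CPM in 1.0 mM gels for embedding at 72 h and at 9.35, 7.67 and 7.35 CPM after embedding at 96 h, with no overlap. Nog in 1.5 mM gels was at 17.4, 23.6 and 20.0 CPM against 8.81, 18.1 and 8.72 CPM. Replicate 2 embedded at 96 h in 1.5 mM gels was alone in its group in reaching the range of the earlier embedding. The log2 fold change was 1.51 ± 0.16 (SE, adjusted p = 0.000276) in 1.0 mM and 0.77 ± 0.26 (SE, adjusted p = 0.0659) in 1.5 mM gels. Without that library, the latter was 1.21 (adjusted p = 0.00709). CT010467.1 took 4.21% of the counts of this library, and its part in the result was not tested. The interaction for Nog was -0.72 ± 0.34 (SE, adjusted p = 0.953), and -0.30 without that library.

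**Figure D2:**
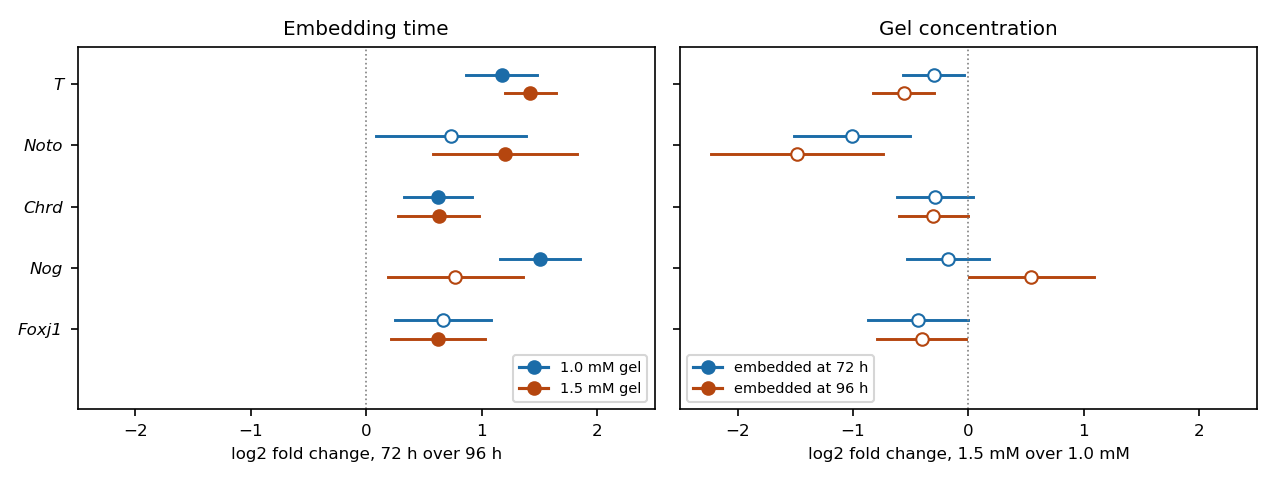
Log2 fold changes of the 5 genes with their 95% intervals (edgeR, lines), for embedding at 72 h over 96 h (left) and for 1.5 mM over 1.0 mM gels (right). Filled points passed an adjusted p of 0.05. All 10 values for embedding time lie above 0 and 7 of them are filled, whereas none is filled for gel concentration, where Noto has the lowest values (-1.01 and -1.48).

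Gel concentration was compared within each embedding time. Noto was the lowest of the 5 genes in the stiffer gel at both times, at 0.498-fold after embedding at 72 h and 0.358-fold after embedding at 96 h. T was at 0.811-fold and 0.678-fold, Foxj1 at 0.738-fold and 0.754-fold, and Chrd at 0.817-fold and 0.810-fold. Nog was at 0.884-fold after embedding at 72 h and at 1.46-fold after embedding at 96 h. With edgeR's quasi-likelihood test, none of the 5 passed an adjusted p of 0.05 at either time, as 0.0% of 15563 genes did at 72 h and 0.0% of 15861 genes at 96 h, where DESeq2 called 14 and 86 genes of the whole table. At an unadjusted p under 0.05 there were 3 of the 5 genes at 72 h (T, Noto and Foxj1), where 6.9% of all genes reached it, and all 5 at 96 h, where 9.95% did. DESeq2 called none of the 5 at 72 h and T and Noto at 96 h, and limma-voom called none at either time. With replicate number as a block in the edgeR fit, which was not the main design, T and Noto passed at 96 h.

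The Noto libraries did not overlap between gels at either embedding time: 2.72 to 4.23 CPM in 1.5 mM gels lay below 5.30 to 7.74 CPM in 1.0 mM gels at 72 h, and 0.963 to 1.80 CPM below 2.24 to 5.94 CPM at 96 h. It was alone among the 5 genes in this, and 0.983% of 15261 genes were lower without overlap at both times. T and Foxj1 were lower without overlap at 96 h, where 8.08% of all genes were, but not at 72 h (5.11% of all genes). The log2 fold change of Noto was -1.01 ± 0.23 (SE, adjusted p = 0.698) at 72 h, where it ranked 17 by p, and -0.95 (adjusted p = 0.138) without replicate 1 of the 1.5 mM gels. It was -1.48 ± 0.34 (SE, adjusted p = 0.189) at 96 h. For T these values were -0.30 ± 0.12 (SE, adjusted p = 0.698) and -0.56 ± 0.12 (SE, adjusted p = 0.166). DESeq2 gave T an adjusted p of 0.00139 and Noto one of 0.00857 at 96 h.

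With all 12 libraries and embedding time as a covariate, the log2 fold change of Noto between gels was -1.22 ± 0.23 (SE, adjusted p = 0.0788), with a rank of 12 among 16388 genes by p. Only 0.0305% of genes passed in this fit, and none of the 5 did. The same value was -0.43 ± 0.10 (SE, adjusted p = 0.125) for T, and Foxj1 had one of -0.42 ± 0.13 (SE, adjusted p = 0.217), Chrd one of -0.30 ± 0.11 (SE, adjusted p = 0.285) and Nog one of 0.17 ± 0.19 (SE, adjusted p = 0.775). Noto passed without replicate 3 embedded at 96 h in 1.0 mM gels (adjusted p = 0.039) or in 1.5 mM gels replicate 1 of the 72 h embedding (adjusted p = 0.045), the library with the most CT010467.1. DESeq2 called Noto (adjusted p = 7.52e-05) and T (adjusted p = 0.00619) in the same fit. With replicate number as a block, edgeR called Noto as well. The value for Nog came from a library, as it was -0.06 without replicate 2 embedded at 96 h in 1.5 mM gels. At an unadjusted p under 0.05, 4 of the 5 genes were lower in the stiffer gel (T, Noto, Chrd and Foxj1), where 12.7% of all genes differed in either direction. With edgeR, no gene passed for the interaction of embedding time and gel (0.0% of 16388), where DESeq2 called 2 genes, none of them among the 5. At an unadjusted p under 0.05, edgeR had 1 of the 5 for the interaction, Nog (4.32% of all genes).

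Noto and T were next compared within libraries, as the ratio of their CPM, since both are made by axial cells and T also by the tail bud. Noto amounted to 2.23%, 2.40% and 3.44% of T in 1.0 mM gels for embedding at 72 h and to 4.34%, 3.63% and 2.45% after embedding at 96 h. Noto in 1.5 mM gels amounted to 1.68%, 1.84% and 1.35% of T after embedding at 72 h and to 2.17%, 1.39% and 2.03% after embedding at 96 h. The ratio was thus lower in the stiffer gel in every library than in any library of the softer gel. On the log2 scale the mean difference between gels within embedding times was -0.80. It was -0.71 at 72 h and -0.88 at 96 h, and -0.91 to -0.70 when each library was left out in turn. The mean difference between embedding times was -0.27. The pair of genes was chosen with earlier results of these data known, and the lower values of Noto in the stiffer gel are the ones given for it alone, so the ratio is a description and no test of it is given.

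The ratio of Chrd to Nog, likewise a description, overlapped between the gels at 72 h and not at 96 h. Chrd CPM amounted to 195% to 284% of Nog CPM in 1.0 mM gels for embedding at 72 h and to 357% to 449% after embedding at 96 h, with no overlap. The stiffer gel had 195% to 231% and to 137% to 351%, where the lowest value was replicate 2 embedded at 96 h, the library with high Nog. The mean log2 difference was -0.55 for embedding time (72 h minus 96 h) and -0.45 for gel (1.5 mM minus 1.0 mM). Without replicate 2 embedded at 96 h in 1.5 mM gels, the difference for embedding time was -0.75.

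**Figure D3:**
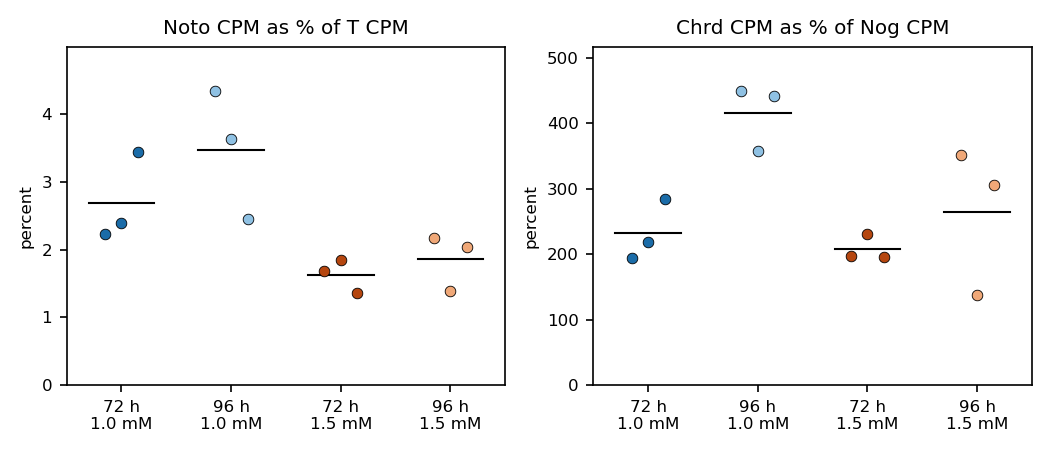
Noto CPM as a percentage of T CPM (left) and Chrd CPM as a percentage of Nog CPM (right) in each library, with linear axes from 0; lines are group means. Noto stayed at 1.35% to 2.17% of T in the 6 libraries of 1.5 mM gels and at 2.23% to 4.34% in the 6 libraries of 1.0 mM gels.

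Over the 12 libraries, 4 of the 5 genes shared a pattern, as a description of points that share embedding time, gel and library. In log2 CPM, Pearson's r was 0.95 between Chrd and Foxj1, 0.92 between T and Chrd, 0.90 between Noto and Foxj1, 0.89 between T and Foxj1, 0.84 between Noto and Chrd and 0.82 between T and Noto. Nog stood apart, with r of 0.76 to T, 0.67 to Chrd, 0.59 to Foxj1 and 0.36 to Noto. After the group means were removed, so that only differences among replicates remained, r was 0.63 to 0.83 among T, Noto, Chrd and Foxj1, and -0.22 to 0.20 between Nog and these genes. Thus replicates with more Chrd tended to have more Foxj1 within their group (r = 0.83), whereas the low r of Nog to Foxj1 (0.04) pooled groups that differed. For the 72 h embedding, replicates ranked alike in Nog and Foxj1 in the stiffer gel and in opposite order in the softer one. For the 96 h embedding, the replicate highest in Nog was also highest in Foxj1 in the softer gel (9.35 and 8.43 CPM). Replicate 2 in the stiffer gel had the most Nog (18.1 CPM) but less Foxj1 (4.82 CPM) than replicate 1 (5.96 CPM).

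The genes with the pattern most like each of the 5 were listed among the 11344 genes that averaged 100 counts or more per library. For Chrd, the nearest were Pkd1l1 (r = 0.96), whose product is a polycystin of node cells needed for sensing flow, Calca (0.95), Foxj1 (0.95), Rab37 (0.94) and Lmx1b (0.94). Those of Foxj1 were Lmx1b (0.96), Chrd (0.95), Dnaaf5 (0.94), an assembly factor of ciliary dynein, Rab37 (0.93) and Olfm1 (0.93). Noto was nearest to Prr36 (0.96), Dhrs1 (0.94), Lmx1b (0.90), Foxj1 (0.90) and Mief1 (0.90). Lmx1b, a LIM homeobox factor, was thus among the first 5 of 3 genes. T was nearest to Samd3 (0.98), the LIM homeobox gene Lmx1a (0.98), Adgrb2 (0.98), Tmod2 (0.97) and Tmem163 (0.97). None of these 5 was among the first 5 of Noto, Chrd or Foxj1. Among the genes nearest to Nog were the cadherin gene Cdh4 (0.95), Igsf21 (0.94), Hs3st3b1 (0.94) and the endoderm and mesoderm factor Gata6 (0.93), and none of the other 4 genes was in its list.

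**Figure D4:**
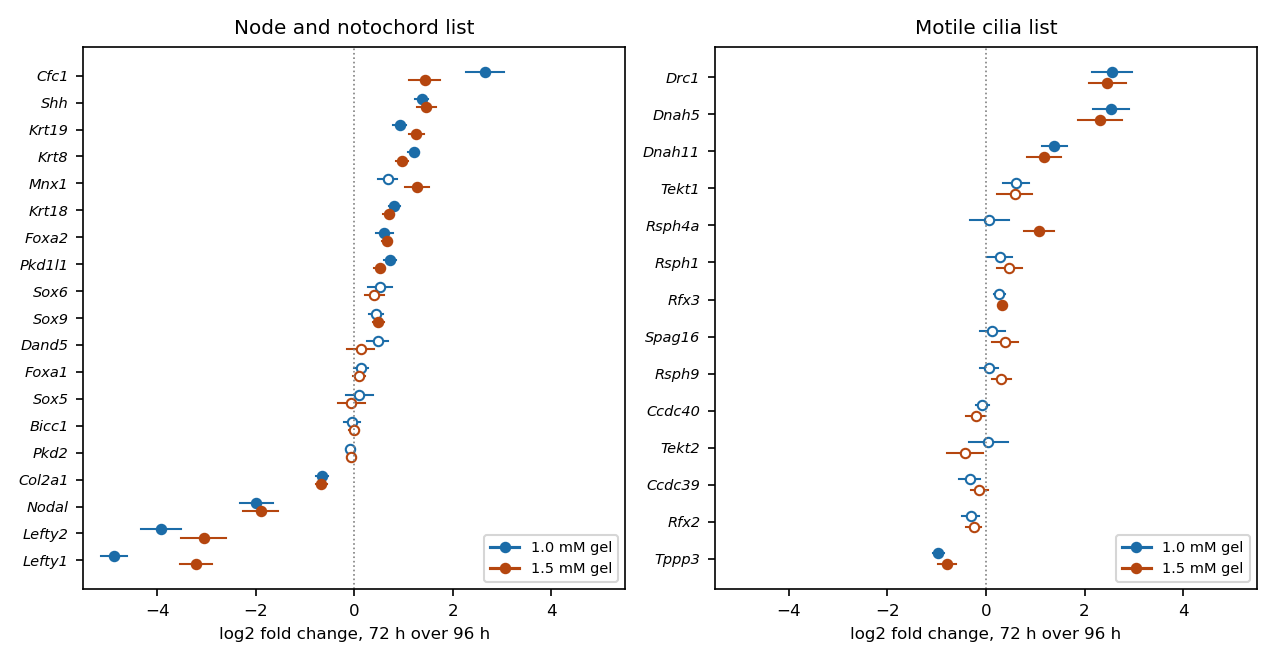
Log2 fold changes for embedding at 72 h over 96 h in both gels, for the tested genes of the node and notochord list (left) and the motile cilia list (right), with lines for ± SE. Filled points passed an adjusted p of 0.05 (edgeR). Shh, Foxa2 and Krt8 lie above 0 and Lefty1, Lefty2 and Nodal below it in both gels. In the motile cilia list, Dnah5, Dnah11 and Drc1 lie above 0 and Tppp3 below it in both. Of the 14 cilia genes tested, 10 did not pass in 1.0 mM gels and 8 did not in 1.5 mM gels.

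The 5 genes were set beside lists of other genes of the same cells and pathway, chosen with earlier results known. Of 20 genes of the node and notochord, 19 were tested, and 7 were higher and 4 lower after embedding at 72 h in 1.0 mM gels, with 9 higher and 4 lower in 1.5 mM gels. Over all genes tested, 5.97% passed higher and 3.27% lower in 1.0 mM gels, and 10.4% and 8.98% in 1.5 mM gels. The median log2 fold change of the list was 0.47 in 1.0 mM and 0.40 in 1.5 mM gels. Shh, the ligand that notochord and floor plate secrete, was higher by 1.37 ± 0.13 (SE, adjusted p = 0.000151) and 1.46 ± 0.19 (SE, adjusted p = 0.00287) on the log2 scale in the softer and the stiffer gel. The forkhead factor Foxa2, which marks the node, notochord, floor plate and endoderm, was higher by 0.61 ± 0.17 (SE, adjusted p = 0.0499) and 0.66 ± 0.09 (SE, adjusted p = 0.00337). The keratin gene Krt8 rose by 1.21 in the softer and 0.96 in the stiffer gel, and Krt19 by 1.26 in 1.5 mM gels.

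The genes that were lower were the same 4 in both gels, Lefty1, Lefty2, Nodal and Col2a1, named here because they are few. Nodal, the ligand made at the node margin, fell by 1.99 in 1.0 mM and by 1.90 in 1.5 mM gels on the log2 scale. Lefty1, which encodes an extracellular antagonist of Nodal and is made at the midline, was at 9.11 to 13.3 CPM in 1.0 mM gels for embedding at 96 h and at 0.286 to 0.458 CPM for embedding at 72 h. It had 7 to 11 counts per library in the latter group, and the log2 fold change was -4.88 ± 0.26 (SE, adjusted p = 1.46e-05). Higher T, Shh and Foxa2 were thus accompanied by lower Nodal and Lefty1 in the same libraries. Gdf1 had no counts in any library.

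Motile cilia genes, which Foxj1 controls in many tissues, included several that were counted at low levels. Of 20 genes on the list, 18 were found and 14 were tested in each gel. The 18 genes summed to 127 to 139 CPM in 1.0 mM gels for embedding at 72 h and to 137 to 145 CPM after embedding at 96 h. Their sums in 1.5 mM gels were 120 to 130 CPM and 114 to 123 CPM. In 1.0 mM gels Dnah5, Dnah11 and Drc1 were higher after embedding at 72 h and Tppp3 lower, and in 1.5 mM gels the same 3, Rfx3 and Rsph4a were higher and Tppp3 lower. Among all genes tested, 5.97% passed higher and 3.27% lower in 1.0 mM gels, and 10.4% and 8.98% in 1.5 mM gels. The median log2 fold change of the list was 0.10 in 1.0 mM and 0.36 in 1.5 mM gels. Dnah5, an outer-arm dynein heavy chain, was higher by 2.54 ± 0.36 (SE, adjusted p = 0.00166) in 1.0 mM and 2.32 ± 0.44 (SE, adjusted p = 0.00907) in 1.5 mM gels. These values rest on 15 to 30 counts per library after embedding at 72 h and on 2 to 7 after embedding at 96 h. Drc1 had 21 to 41 counts per library after embedding at 72 h and 4 to 7 after embedding at 96 h. Dnah5 and Drc1 failed the filter on low counts between gels at 96 h. They were thus tested for embedding time only through the 72 h libraries, where they were high. Dnah11, an axonemal dynein of node cilia, was higher by 1.39 in 1.0 mM and 1.18 in 1.5 mM gels. Its libraries held 14 to 78 counts, but the deposited FPKM of Dnah11 averaged 0 in every group. The reason for this conflict was not tested. Mcidas and Gmnc, regulators of cells with many cilia, had at most 3 and 8 counts in a library.

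Of 15 other secreted BMP antagonists and modulators, 11 were tested in each gel. In 1.0 mM gels 2 were higher (Bmper and Tll1) and 2 lower (Fst and Bmp1) after embedding at 72 h, and in 1.5 mM gels 5 were higher and 2 lower. The shares of all genes tested were 5.97% higher and 3.27% lower in 1.0 mM gels, and 10.4% and 8.98% in 1.5 mM gels. Bmper, which binds BMPs, was higher by 1.82 in 1.0 mM and 1.16 in 1.5 mM gels, and Tll1, a protease of the family that cleaves Chordin, by 2.14 and 2.505. Its relative Bmp1 fell by 0.29 in 1.0 mM and by 0.40 in 1.5 mM gels. Of 18 BMP ligands, receptors and targets, 10 were higher and none lower in 1.0 mM gels, and 6 were higher and 1 lower, Id2, in 1.5 mM gels. The ligand gene Bmp7 was at 95.5 to 109 CPM in 1.0 mM gels for embedding at 72 h and at 46.7 to 55.4 CPM after embedding at 96 h.

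Between gels, none of the genes on these lists, or on the lists of other cell types, passed with edgeR's quasi-likelihood test at either embedding time, in the fit of all libraries or for the interaction. At an unadjusted p under 0.05 there were 21 of the 112 genes tested on all 9 lists at 72 h (6.9% of all genes) and 38 of 113 at 96 h (9.95%). Other tools were not run for the lists. Shh had log2 fold changes of -0.22 ± 0.12 and -0.32 ± 0.19 (SE) at 72 h and 96 h, and Foxa2 of -0.27 ± 0.12 and -0.34 ± 0.16. The median over the node and notochord list was -0.17 at 72 h and -0.12 at 96 h, and over the motile cilia list -0.08 and -0.14.

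Markers of other cells that make some of these transcripts are given as summed CPM over each list. The tail bud and neuromesodermal list (13 genes) summed to 245 to 265 CPM in 1.0 mM gels for embedding at 72 h and to 214 to 247 CPM after embedding at 96 h. The list summed in 1.5 mM gels to 257 to 269 CPM and to 237 to 247 CPM. Over its tested genes, the median log2 fold change for 72 h over 96 h was -0.58 in 1.0 mM and -0.23 in 1.5 mM gels. The sums, which weigh abundant genes most, thus went the other way from the median gene of this list. The gut endoderm list (13 genes), whose Foxa2-expressing cells could add to that gene, summed to 574 to 695 and 474 to 532 CPM in 1.0 mM gels at 72 h and 96 h, and to 428 to 621 and 398 to 548 CPM in 1.5 mM gels, with Afp at 0. The floor plate and neural tube list (10 genes) summed to 128 to 190 and 194 to 203 CPM in 1.0 mM gels and to 132 to 161 and 128 to 168 CPM in 1.5 mM gels, with Ferd3l at 0. Their part in the results for T, Shh and Foxa2 was not tested.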

How the data were processed

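Poly-A RNA of 12 gastruloid libraries in 4 groups was sequenced by the authors, who trimmed reads with cutadapt 4.4, aligned them to mm10 with STAR 2.7.10b and deposited the counts for each gene, not normalized. The authors deposited FPKM values computed with Cufflinks 2.2.1.3. A deposited table of the authors' own comparisons (fold changes and p-values) was not used. Counts were tested with edgeR 4.0.16 in R 4.3.3 (TMM, filterByExpr with a minimum count of 10 and total of 15, glmQLFit and glmQLFTest, Benjamini-Hochberg adjustment over all genes tested), with only the compared groups in a pairwise fit and without 36 mitochondrial genes. A positive log2 fold change means higher after embedding at 72 h or in 1.5 mM gels. CPM use TMM-scaled totals, and log2 CPM a prior count of 2. Ratios of CPM are described without a test. The procedure was tested on simulated data. Alternatives were DESeq2 1.42.0, limma 3.58.1 (voom, or FPKM with a pseudocount of 1 or 0.1), other normalizations and filters, replicate number as a block, and each library left out. Genes and lists were chosen with earlier results of these data known. Named genes are the 5, at most 4 passing genes per list with the smallest adjusted p, fixed defining markers (Foxa2, Shh, Mixl1, Tbx6, Cdx2, Sox17 and Sox2), and the 5 nearest by Pearson's r, of which 1 is not reported here. Nodal, Col2a1, Dnah11, Rsph4a, Gdf1, Mcidas, Gmnc, Ntn1 and Wnt8a were named outside this rule, after their values were seen. The study describes its replicates as biological. Replicate numbers were not taken as pairing, since not all same-numbered libraries deviated together with correlations above 0.1. These correlations ran from 0.0365 to 0.313 with a median of 0.156, against a median of -0.0765 for other pairs. Replicate number as a block changed calls between gels, as given below. Dnai1 and Dnai2 were not found under their symbols and are not analysed here.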

Additional observations from a re-analysis of the deposited data

How the results depend on the processing

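Of 754 values recomputed, 652 kept their direction and their side of the threshold. No alternative turned the direction of a gene between embedding times. With limma on FPKM (pseudocounts 1 and 0.1), the log2 fold change lost its call for T (1.03 and 1.05) and Chrd (0.68 and 0.75) in 1.0 mM gels and for Noto (0.59 and 1.11), Chrd (0.69 and 0.78) and Foxj1 (0.40 and 0.59) in 1.5 mM gels, leaving 1 of the 5 in each. In 1.0 mM gels Foxj1 gained a call with DESeq2 (0.66), mitochondrial genes kept (0.67) or all libraries in 1 fit (0.66). In 1.5 mM gels Nog gained a call with limma-voom (0.86) or all libraries in 1 fit (0.78). With no filter on low counts, more of the 5 passed in each of the 6 comparisons: 5 in 1.0 mM gels for embedding time (Noto 0.74, Foxj1 0.67), 1 between gels at 72 h (Noto -0.999), 3 at 96 h (T -0.56, Noto -1.48, Nog 0.55), 4 over both times (T -0.43, Noto -1.22, Chrd -0.30, Foxj1 -0.42) and 1 for the interaction (Nog -0.74), and Nog (0.78) passed for embedding time in 1.5 mM gels. DESeq2 called 2 of the 5 between gels at 96 h (T -0.56, Noto -1.48) and 2 over both times (T -0.43, Noto -1.23). Over all genes, limma on FPKM called 276 and 224 for embedding time in 1.0 mM gels (1457 with edgeR) and 596 and 482 in 1.5 mM gels (3033). Without the filter 2283 passed in 1.0 mM gels, and between gels 322 at 72 h, 333 at 96 h, 512 over both times and 238 for the interaction. DESeq2 called 211 genes between gels over both times. The cause was not tested. The interaction of Chrd, near 0, turned to -0.0321 with limma-voom and -0.0143 with upper quartile normalization.

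With the replicate number as a block, 2 of the 5 passed between gels at 96 h (T -0.55, Noto -1.44) and 1 over both times (Noto -1.22), and Foxj1 (0.67, 1.0 mM) and Nog (0.83, 1.5 mM) passed for embedding time. Genes that passed went from 0 to 289 at 96 h, from 0 to 43 at 72 h and from 5 to 81 over both times. Same-numbered libraries had correlations of 0.0365 to 0.313, of which 13 of 18 were above 0.1, and since not all were, the numbers were not taken as pairing. In 33 of 36 comparisons the own number was highest, a hint of shared replicate effects that comes from the data and not from the design.

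When each library was left out, log2 fold changes for embedding time ran from 0.45 to 1.13 for Noto, 0.50 to 0.80 for Chrd and 0.55 to 0.84 for Foxj1 in 1.0 mM gels, and from 0.99 to 1.41 for Noto, 0.42 to 0.76 for Chrd, 0.59 to 1.21 for Nog and 0.47 to 0.76 for Foxj1 in 1.5 mM gels. The number of the 5 that passed was 2 to 5 in the softer gel, 1 to 5 in the stiffer gel and 0 to 1 between gels over both times, where Noto ran from -1.35 to -1.04 and Nog from -0.0594 to 0.25. The interaction ran from -0.20 to 0.14 for Chrd and from -0.21 to 0.0915 for Foxj1. The log2 ratio of Chrd to Nog ran from -0.75 to -0.42 for embedding time and from -0.58 to -0.24 for gel, and with FPKM the latter was -0.48. Leaving out a library leaves 2 in a group, with the spread taken from the fit.

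Of the first 5 genes most like each member, Spearman's rho kept 2 for T, 2 for Noto, 3 for Chrd and 1 for Nog, and deviations from group means kept 1 for T, 0 for Noto, 1 for Chrd, 0 for Nog and 1 for Foxj1, so these lists depend on the measure. Group mean levels moved by less than their SD with RLE normalization. Noto (24 to 186 counts) and the dynein genes rest on few counts, and 3 libraries a group limit all results. Noto also varied between replicates, with an SD of 47.5 counts around a mean of 104 after embedding at 96 h in 1.0 mM gels.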

Other observations

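The lists of other cell types differed in how their genes moved with embedding time. The somite list (9 genes, all tested) had no higher gene and 8 lower in 1.0 mM gels for embedding at 72 h, and no higher gene and 7 lower in 1.5 mM gels (edgeR's quasi-likelihood test). Over all genes tested, 3.27% passed lower in 1.0 mM gels and 8.98% in 1.5 mM gels. Meox1, a homeobox gene of somites, was at 65.0 to 131 CPM for embedding at 72 h and at 326 to 402 CPM for embedding at 96 h in the softer gel. Its log2 fold change was -2.03 ± 0.22 (SE) with an adjusted p of 0.000301 there and -1.42 ± 0.23 (SE) with an adjusted p of 0.00531 in the stiffer gel. Meox2 fell by 3.79 in the softer gel and fell by 3.48 in the stiffer gel on the log2 scale.

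The primitive streak and posterior mesoderm list, in which T is active in the embryo, had 14 of 16 genes tested and 1 that passed in each gel. Among all genes tested, 9.24% passed in 1.0 mM gels (5.97% higher, 3.27% lower) and 19.3% in 1.5 mM gels (10.4% higher, 8.98% lower). The gene of this list that passed was Fgf4, which fell by 2.42 in 1.0 mM and by 2.53 in 1.5 mM gels. Mixl1, an early streak gene, had 4 to 26 counts per library and log2 fold changes of -0.47 ± 0.39 and -0.56 ± 0.50 (SE) in the softer and the stiffer gel, and Tbx6 of presomitic mesoderm had -0.32 ± 0.34 and -0.27 ± 0.27. In the tail bud list, 1 of the 11 genes tested was higher and 5 lower in 1.0 mM gels. In 1.5 mM gels, 2 of the 10 tested were higher and 2 lower. Nkx1-2 (-2.29), Cdx1 (-2.01) and Wnt8a (-1.85) were lower in 1.0 mM gels. Nkx1-2 and Wnt8a did not pass in 1.5 mM gels, where Cdx1 was not tested. Hoxb9 fell by 6.79 in the softer gel and fell by 4.25 in the stiffer gel, Cyp26a1, an enzyme that breaks down retinoic acid, was higher by 0.85 and 0.60, and Sox2 fell by 0.58 and fell by 0.42. Hoxb9 failed the filter on low counts between gels at 72 h, so its fold changes rest on few counts after that embedding. Cdx2 had -0.52 ± 0.25 (SE, adjusted p = 0.237) and -0.04 ± 0.25 (SE, adjusted p = 0.931).

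In the gut endoderm list, Gata6 (1.60 in 1.0 mM and 0.85 in 1.5 mM gels) and Gata4 (2.57 and 1.36) were higher after embedding at 72 h, while Sox17 had -0.17 ± 0.14 (SE, adjusted p = 0.52) and -0.53 ± 0.15 (SE, adjusted p = 0.0372). In the floor plate list, 3 of 8 tested genes were higher and 2 lower in 1.0 mM gels, and 2 of 6 were higher and none lower in 1.5 mM gels. Over all genes tested, 5.97% passed higher and 3.27% lower in 1.0 mM gels, and 10.4% and 8.98% in 1.5 mM gels. Nkx2-2, a target of Shh signalling in the ventral neural tube, was higher by 1.73 in 1.0 mM and 2.56 in 1.5 mM gels, and Slit2 by 0.98 and 0.62. In 1.0 mM gels Pax6 was higher by 1.24 and Ntn1 fell by 0.95, and neither passed in 1.5 mM gels. Olig2 fell by 5.23 in 1.0 mM gels and was not tested in 1.5 mM gels. It also failed the filter on low counts between gels at 72 h, so its fold change rests on few counts after that embedding.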
